A study of Homo sapiens with 12 samples.

Results

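A set of 7 genes that p53 is known to switch on were followed through an RNA-seq experiment in ES2 cells. The members, MDM2, TP53INP1, SESN1, FAS, GADD45A, RRM2B and ZMAT3, were chosen by symbol. They are 7 of the 58735 genes in the count table, and all 7 were among the 16891 genes that passed the filter on low counts. None of the values below was used to define the set, although the set was drawn up with earlier results of these data known.

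ES2 is a human ovarian cancer line that is known to carry a mutant p53. In the FDX2-iKO cells used here, the endogenous FDX2 gene was disrupted with CRISPR and an editing-resistant, HA-tagged FDX2 was supplied from a TetON cassette, so that doxycycline (Doxy) keeps FDX2 present and its withdrawal removes it. FDX2 is a mitochondrial ferredoxin that passes electrons into iron-sulfur cluster assembly. The 4 conditions, each with 3 libraries, were 20% O2 with Doxy (20% O2 + Doxy), 20% O2 without Doxy (20% O2 wo Doxy), 3% O2 + Doxy and 3% O2 wo Doxy. Cells at 20% O2 were kept with or without Doxy for 6 days. Cells at 3% O2 had 4 such days at 20% O2 and then 3 days at 3% O2. Every condition therefore carries the same edited background, and the cells came from limiting-dilution cloning, with clone 1 used unless otherwise stated. A change between + Doxy and wo Doxy cannot be told apart from an effect of the drug itself, and a change between 20% and 3% O2 cannot be told apart from the longer culture.

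The p53 protein is a transcription factor that accumulates after DNA damage and other stresses. It raises genes that halt the cell cycle, repair DNA or start cell death, and it raises its own inhibitor MDM2, which closes a feedback loop. Several p53 targets, GADD45A and SESN2 among them, are also known to respond to other stress pathways, and many ovarian cancers have lost normal p53 function.

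The libraries held 24958386 to 34313637 counts in total, and mitochondrial genes took 2.38% to 2.96% of them in 20% O2 + Doxy, 3.06% to 3.26% in 20% O2 wo Doxy, 2.55% to 2.87% in 3% O2 + Doxy and 2.43% to 3.14% in 3% O2 wo Doxy. The mitochondrial share thus did not overlap between the groups with and without Doxy at 20% O2, and it overlapped between those at 3% O2. Within conditions, 20% O2 + Doxy replicate 1, 3% O2 + Doxy replicate 3 and 3% O2 wo Doxy replicate 1 stood apart from the other libraries of their condition, with a chi-square per gene of 21.3 to 39.9 against 2.55 to 8.83 for all other replicate pairs. FDX2 itself had only 2 to 13 counts per library in any condition and fell below the filter, so its withdrawal could not be checked from these counts. Other genes on the same strand share 70.9% of its exonic bases, which leaves its counts uncertain. Markers matched the label in part: KRT8, KRT18, KRT7 and PAX8 exceeded 1 CPM (counts scaled to a common library total, on library totals scaled by the TMM method), while KRT19, EPCAM, CDH1, MUC16 and WT1 did not. Of the 5 mesenchymal markers, 4 exceeded 1 CPM, and of the 6 markers of blood and endothelium only CDH5 did. The summed CPM of the mesenchymal list was 4772 to 5936 in 20% O2 + Doxy and 4049 to 4230 in 20% O2 wo Doxy, 5328 to 7021 in 3% O2 + Doxy and 5488 to 6651 in 3% O2 wo Doxy. That of the epithelial list was 1049 to 1419, 847 to 903, 1037 to 1256 and 1085 to 1213 in the same order, and that of the blood and endothelial list 22.2 to 28.4, 26.4 to 27.0, 28.8 to 36.8 and 40.1 to 51.9. The part of these markers and of the mitochondrial share in the results was not tested.

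DNA letters through which p53 is known to bind were looked for in the 250 bases before each annotated start of the members in the RefSeq promoter table (GRCh38.p14). The p53 response element was taken as 2 abutting decamers, each with 3 purines, C, 2 bases that are A or T, G and 3 pyrimidines, 20 bases in all. Up to 3 mismatches were allowed, none of them at the fixed C and G. The motif reads the same on both strands. The table matched 4 of the 7 members (MDM2, SESN1, FAS and ZMAT3) with 12 starts, and 4 of these starts had a match. Of all 34788 windows of this length, 0.917% had one. The 2 MDM2 starts with a match share the same 20 bases, so the 4 are not separate sites. The stretches are shown because each of MDM2, SESN1 and FAS carries such a match, while on FDX2 loss at 20% O2 MDM2 fell, FAS rose and SESN1 was not called. Capitals mark the 20 bases.
MDM2, chr12:68808883-68808982, plus strand: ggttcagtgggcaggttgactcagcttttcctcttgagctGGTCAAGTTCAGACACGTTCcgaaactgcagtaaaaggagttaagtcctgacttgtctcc
SESN1, chr6:109008989-109009077, minus strand: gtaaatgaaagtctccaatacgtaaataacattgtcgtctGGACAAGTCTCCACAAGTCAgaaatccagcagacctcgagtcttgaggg
FAS, chr10:88991304-88991333, plus strand: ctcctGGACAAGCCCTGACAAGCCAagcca
The MDM2 match had 2 mismatches, began 94 and 101 bases before 2 neighbouring starts, and lies within the gene (chr12:68808176-68850686) outside its annotated exons. The SESN1 match had 3 mismatches, began 49 bases before its start, and lies within the gene (chr6:108986437-109094819) outside its exons. The FAS match had 2 mismatches and began 122 bases before a start inside the gene (chr10:88990582-89015785). It is covered by an annotated exon in GENCODE 29, so only the site with 5 bases on each side is given. ZMAT3 (chr3:179017223-179072279) had no such letters in its 2 windows. A match describes letters and does not show binding.

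The 7 genes were expressed at very different levels. Per length, TPM (counts scaled to all annotated exonic bases of a gene and to library total) was read over all 12 libraries. GADD45A averaged 124 (range 61.3 to 243), RRM2B 21.4 (16.2 to 27.2), MDM2 15.9 (12.6 to 19.4), ZMAT3 12.7 (9.79 to 17.7), TP53INP1 6.49 (2.70 to 13.04), SESN1 4.82 (3.46 to 5.45) and FAS 2.03 (1.53 to 3.02). In TPM, GADD45A was above all other members in every library, while the ranges of RRM2B, MDM2 and ZMAT3 overlapped, as did those of TP53INP1, SESN1 and FAS in part. The order depends on the length used, 13284 bases for MDM2 and 5548 for RRM2B. In CPM, MDM2 (56.5 on average) was above RRM2B (31.6). Between the highest and the lowest condition mean in CPM, TP53INP1 varied 3.75-fold and GADD45A 3.01-fold, and the other 5 members 1.30-fold to 1.46-fold.

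**Figure D1:**
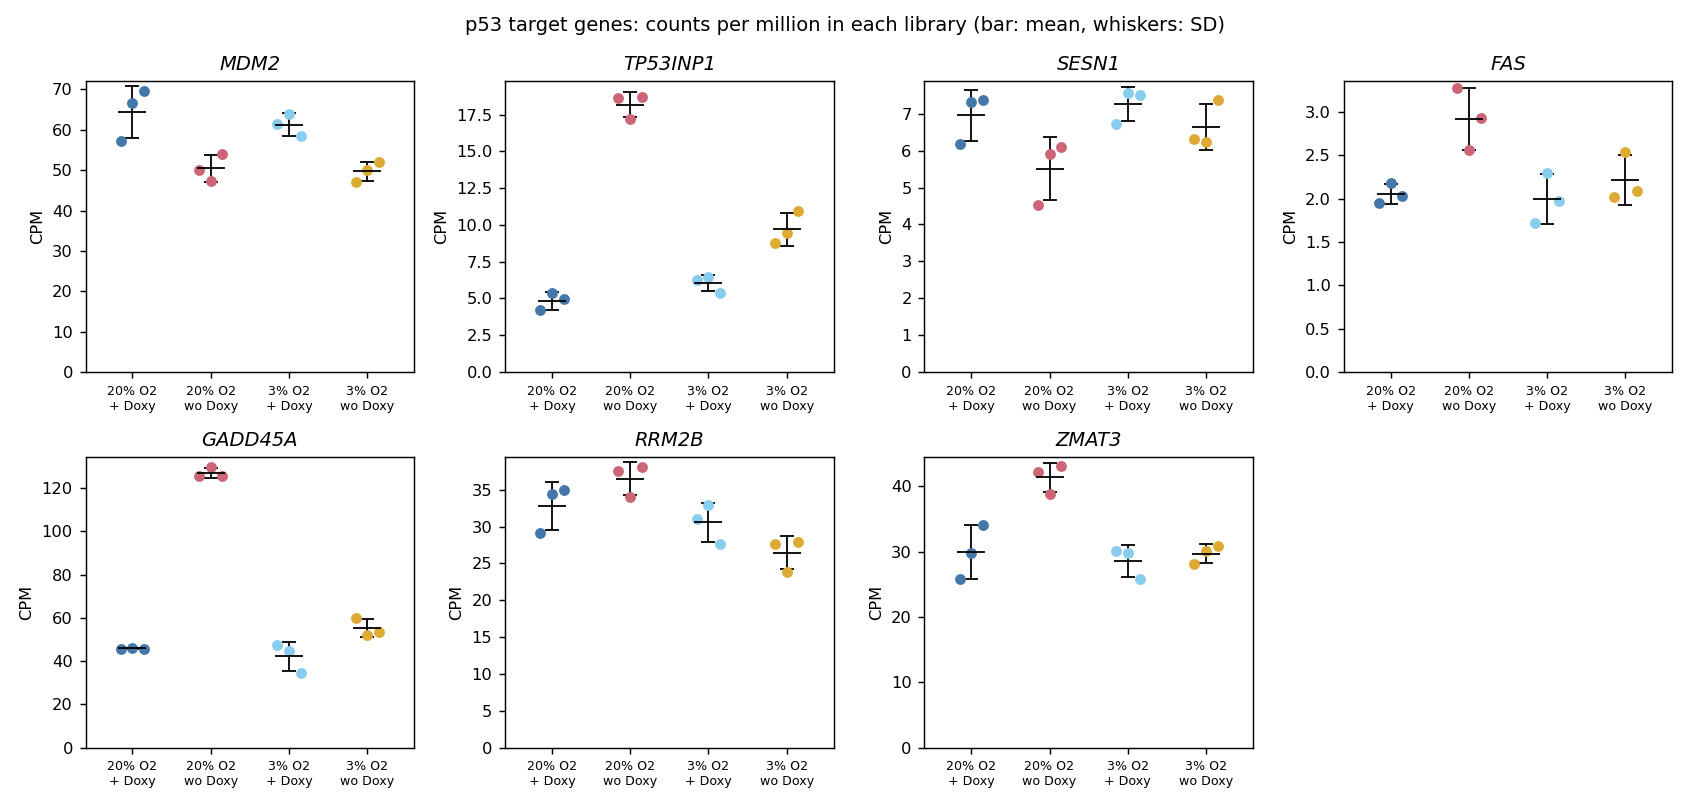
CPM of the 7 members (y axis, from 0) in each of the 12 libraries (points) of the 4 conditions (x axis), with the mean (bar) and SD (whiskers) of 3 libraries. TP53INP1 and GADD45A stand highest in 20% O2 wo Doxy, where TP53INP1 lies at 17.2 to 18.7 CPM and GADD45A at 126 to 129.6 CPM, and MDM2 is lower in both conditions without Doxy.

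The first question was how the set behaved when FDX2 was lost at 20% O2. Of the 7 members, 4 rose (TP53INP1, GADD45A, FAS and ZMAT3) and 1 fell (MDM2), at a Benjamini-Hochberg adjusted p under 0.05 in edgeR's quasi-likelihood test. The 2 others, SESN1 and RRM2B, did not pass. In this comparison 35.3% of all 16891 tested genes were called, so that a call was common. The median log2 fold change was 0.47 over the members and 0.01 over all tested genes. The 2 groups of libraries did not overlap for 6 of the 7 members, against 52.3% of all tested genes.

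TP53INP1 (chr8:94925972-94949411), a stress-induced protein that acts in autophagy and cell death, showed the largest change of the 7. It was at 4.19, 5.36 and 4.996 CPM in 20% O2 + Doxy and at 18.6, 17.2 and 18.7 CPM in 20% O2 wo Doxy. The groups lay far apart, with 131 to 170 counts per library in the first and 543 to 581 in the second. The log2 fold change was 1.91 (SE 0.12, adjusted p = 9.13e-07), or 3.75-fold. In bulk RNA, a change in the RNA per cell cannot be told apart from a change in the share of cells that make it.

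GADD45A (chr1:67685061-67688338), a growth arrest and DNA damage-inducible stress protein, was the second. It was at 45.5, 46.2 and 45.8 CPM with Doxy and at 126, 129.6 and 126 CPM without. Replicates differed by little within each condition, and every library without Doxy exceeded every one with it. The log2 fold change was 1.47 (SE 0.10, adjusted p = 1.68e-06), or 2.77-fold. Per length, the level went from 82.0 ± 1.63 to 240.5 ± 2.33 TPM (SD, n = 3).

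ZMAT3, which codes for an RNA-binding zinc finger protein, was at 25.9, 29.8 and 34.2 CPM with Doxy and at 42.2, 38.9 and 43.2 CPM without. The groups did not overlap, although the libraries with Doxy were spread widely. It rose 1.38-fold (log2 0.47, SE 0.10, adjusted p = 0.00382).

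FAS, the cell-surface death receptor, was the least abundant member, with 50 to 102 counts per library. It was at 1.95, 2.17 and 2.03 CPM with Doxy and at 3.27, 2.56 and 2.93 CPM without. The groups did not overlap, and the log2 fold change was 0.51 (SE 0.16, adjusted p = 0.0285). The call depended on single libraries. Without 20% O2 + Doxy replicate 1, 2 or 3 the adjusted p was 0.0831, 0.0527 and 0.0681, and without 20% O2 wo Doxy replicate 1 or 3 it was 0.112 and 0.0879. Of the exonic bases of FAS, 8.93% overlap ACTA2 on the opposite strand, and the strand setting of the counting was not stated.

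MDM2, the ubiquitin ligase that marks p53 for degradation, moved the other way. It was at 57.2, 66.5 and 69.6 CPM with Doxy and at 50.1, 47.4 and 54.0 CPM without. The lowest library with Doxy, which is also the one that stood apart, was still above the highest without. MDM2 fell by 0.35 on the log2 scale (SE 0.08, adjusted p = 0.00549). Other genes share 9.21% of its exonic bases.

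SESN1, a sestrin that restrains mTORC1 signalling under stress, had values of 6.17, 7.32 and 7.38 CPM with Doxy and 4.53, 5.91 and 6.11 CPM without. These groups did not overlap, but the log2 fold change of -0.33 (SE 0.13) had an adjusted p of 0.0653 and was not called. Without 20% O2 + Doxy replicate 1 it was -0.43 with an adjusted p of 0.0365. RRM2B (chr8:102204502-102239118), the p53-inducible small subunit of ribonucleotide reductase that supplies nucleotides for DNA repair, was at 29.1, 34.4 and 35.0 CPM with Doxy and at 37.5, 33.95 and 38.0 CPM without. These ranges overlapped, and the log2 fold change was 0.15 (95% confidence interval -0.05 to 0.36, adjusted p = 0.238).

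The same loss of FDX2 was then compared at 3% O2. TP53INP1 and GADD45A rose and MDM2 fell, while SESN1, FAS, RRM2B and ZMAT3 did not pass the test. These are 3 of 7 members, where 7.31% of all tested genes were called. The median log2 fold change was 0.06 over the members and 0.04 over all tested genes, and the groups did not overlap for 3 members, against 24.6% of all tested genes.

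At 3% O2, TP53INP1 was at 6.28, 6.46 and 5.40 CPM with Doxy and at 8.74, 9.44 and 10.9 CPM without. The log2 fold change was 0.68 (SE 0.12, adjusted p = 0.00578), or 1.61-fold, and the groups did not overlap. GADD45A was at 47.4, 44.5 and 34.6 CPM with Doxy and at 59.9, 52.2 and 53.5 CPM without. The lowest library with Doxy, replicate 3, is one of those that stood apart. The log2 fold change of GADD45A was 0.39 (SE 0.10, adjusted p = 0.0375), and 0.17 (adjusted p = 0.0267) without the 3 libraries that stood apart. Those 3 were picked from these same counts for their spread, so the second p cannot back the call. Leaving out 3% O2 + Doxy replicate 2, or 3% O2 wo Doxy replicate 1, 2 or 3, gave an adjusted p of 0.103, 0.109, 0.0668 and 0.0688. MDM2 was at 61.5, 64.0 and 58.4 CPM with Doxy and at 47.2, 50.04 and 52.0 CPM without, again with no overlap. It fell by 0.30 on the log2 scale (SE 0.08, adjusted p = 0.0451). That call was kept without 3% O2 + Doxy replicate 3 but not without replicates 1 or 2 of that condition (adjusted p = 0.115 and 0.157) or without 3% O2 wo Doxy replicates 1, 2 or 3 (adjusted p = 0.122, 0.110 and 0.0677). With 3% O2 + Doxy replicate 2 or any 1 library of 3% O2 wo Doxy left out, TP53INP1 was the 1 member called. For these fits the calls over all genes are not given.

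The other 4 members lay close together with and without Doxy at 3% O2. SESN1 was at 6.73 to 7.56 CPM with Doxy and 6.23 to 7.36 CPM without, and its log2 difference was -0.13 (95% confidence interval -0.41 to 0.15). FAS was at 1.72 to 2.29 CPM and at 2.01 to 2.54 CPM, with a log2 difference of 0.15 (-0.20 to 0.51). RRM2B was at 27.7 to 33.0 CPM and at 23.8 to 27.9 CPM, with a log2 difference of -0.21 (-0.42 to 0.00). ZMAT3 was at 25.8 to 30.2 CPM and at 28.1 to 30.9 CPM, with a log2 difference of 0.06 (-0.16 to 0.28). All 4 pairs of ranges overlapped. The intervals of SESN1, FAS and RRM2B still allow changes of the size seen for called members.

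Whether the response to FDX2 loss differed with oxygen was tested directly, as the difference of the log2 fold changes (3% minus 20% O2) within the fit of all 12 libraries. It was called for TP53INP1 and GADD45A, 2 of 7 members, where 7.29% of all tested genes were called. For TP53INP1 the difference was -1.22 (SE 0.16, adjusted p = 0.0019). For GADD45A it was -1.08 (SE 0.14, adjusted p = 0.00159). Both genes thus rose less at 3% than at 20% O2, and both differences kept their call in every alternative tried. The differences for ZMAT3 (-0.41, adjusted p = 0.106) and RRM2B (-0.36, adjusted p = 0.133) did not pass. Without 20% O2 + Doxy replicate 3 or 3% O2 + Doxy replicate 3, ZMAT3 did (-0.51, adjusted p = 0.0391, and -0.48, adjusted p = 0.0463), which made 3 members. The calls over all genes in these fits are not given, so the added member cannot be told apart from a change over all genes. The 3 libraries that stood apart were picked from these counts. Leaving them out raised the calls over all genes, as given in the closing section. In that fit ZMAT3 and RRM2B both passed (-0.35 and -0.38), which made 4. FAS (-0.36, 95% confidence interval -0.86 to 0.14), SESN1 (0.21, -0.19 to 0.61) and MDM2 (0.05, -0.20 to 0.30) were not called. The fall of MDM2 was therefore not shown to depend on oxygen. The median difference was -0.36 over the members and 0.05 over all tested genes.

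**Figure D2:**
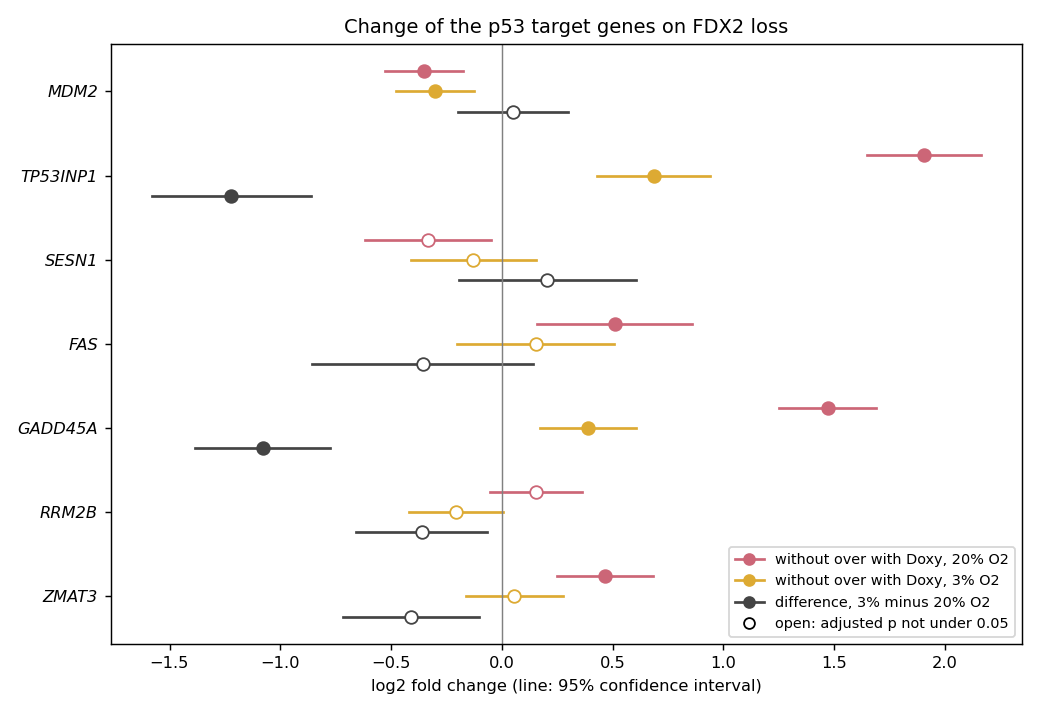
Log2 fold change (x axis) of each member (y axis) without over with Doxy at 20% O2 and at 3% O2, and the difference between both, with 95% confidence intervals as lines and open points where the adjusted p is not under 0.05. TP53INP1 (1.91 and 0.68) and GADD45A (1.47 and 0.39) lie to the right at both oxygen levels, MDM2 (-0.35 and -0.30) lies to the left at both, and the differences of TP53INP1 and GADD45A have intervals that end at -0.86 and -0.77.

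Oxygen was also compared at constant Doxy. With Doxy, 0 of the 7 members were called, where 2.02% of all tested genes were. DESeq2 also called 0, and 1 member, TP53INP1 (log2 fold change 0.32), had an unadjusted p under 0.05 in edgeR. Its share over all genes at that unadjusted p is not given. The member changes ran from -0.12 to 0.32, with a median of -0.07 against 0.00 to 2 decimals over all tested genes. Only for TP53INP1 did the groups not overlap, against 15.4% of all tested genes.

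Without Doxy, 4 members were lower at 3% than at 20% O2 and 0 were higher, where 25.8% of all tested genes were called. This comparison shares its 20% O2 wo Doxy libraries with that of FDX2 loss at 20% O2. GADD45A fell by 1.20 on the log2 scale (SE 0.10, adjusted p = 2.08e-05), from 127 ± 2.32 to 55.2 ± 4.11 CPM (SD, n = 3). TP53INP1 fell by 0.90 (SE 0.11, adjusted p = 0.000279), from 18.2 ± 0.868 to 9.70 ± 1.11 CPM. ZMAT3 fell by 0.48 (adjusted p = 0.00573), from 41.4 ± 2.26 to 29.7 ± 1.45 CPM, and RRM2B by 0.46 (adjusted p = 0.0055), from 36.5 ± 2.22 to 26.4 ± 2.26 CPM. These 4 calls were kept when each library was left out. FAS (log2 fold change -0.40, adjusted p = 0.0889) and SESN1 (0.27, adjusted p = 0.15) did not overlap between the groups but were not called, and MDM2 was at -0.02 with overlapping groups. The groups of 6 of 7 members did not overlap, against 49.4% of all tested genes. The median was -0.46 over the members and 0.07 over all tested genes.

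Read by gene across the 4 conditions, TP53INP1 stood in the order 20% O2 + Doxy, 3% O2 + Doxy, 3% O2 wo Doxy and 20% O2 wo Doxy, from 4.85 ± 0.601 to 18.2 ± 0.868 CPM. Its first 2 conditions did not differ by the test. GADD45A had 3% O2 + Doxy (42.2 ± 6.71 CPM) and 20% O2 + Doxy (45.8 ± 0.365 CPM) next to each other at the bottom, also not told apart by the test, then 3% O2 wo Doxy and 20% O2 wo Doxy. ZMAT3 was at 28.6 to 30.0 CPM on average in 3 conditions, which the tests made did not separate, and higher only in 20% O2 wo Doxy. MDM2 formed 2 levels, 61.3 and 64.4 CPM with Doxy and 49.7 and 50.5 CPM without.

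The members did not move as a single group across the libraries. Pearson's r of log2 CPM over the 12 libraries ran from -0.77 to 0.92 over the 21 pairs, with a median of 0.34, and 9 pairs were negative. It was 0.92 for TP53INP1 with GADD45A, 0.90 for GADD45A with ZMAT3 and 0.83 for TP53INP1 with ZMAT3. MDM2 ran against TP53INP1 (r = -0.72) and with SESN1 (r = 0.63), and SESN1 ran against GADD45A (r = -0.77). The points share 4 conditions, so these values mostly describe the condition means.

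For each member, the 3 tested genes with the most similar profile over the 12 libraries were read out among genes of at least 5 CPM on average. They were ANTXR1, LINC00973 and SMIM14 for TP53INP1 (r = 0.99 for each) and PTGR1, SNAPC1 and SNHG32 for GADD45A (0.99 for each). For MDM2 they were ESCO2, NRIP1 and USP14 (0.98 to 0.99), and for ZMAT3 they were YIPF6, ZNF146 and CLIC4 (0.99 for each). For RRM2B they were STK26, ARMC1 and SMIM8 (0.97 for each). The profiles nearest to SESN1 and FAS were less close: KIFBP, GLRB and CILK1 for SESN1 (0.87 to 0.89) and C1orf74, APOL6 and SLC12A2-DT for FAS (0.89 to 0.91). No member was among the 3 nearest of another.

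Relatives and partners of the members were read from a list of 20 genes, of which 18 were tested (GADD45G and ZMAT4 were not). The list overlaps those below: SESN2, TNFRSF10A and TNFRSF10B are also among the other p53 targets, and MDM4 among the p53 regulators. On FDX2 loss at 20% O2, 8 rose and 2 fell, 55.6% of those tested beside 35.3% of all genes, with a median log2 fold change of 0.18 beside 0.01. At 3% O2, 3 rose (CFLAR, GADD45B and TP53INP2) and 0 fell, 16.7% of those tested beside 7.31% of all genes. In the direct test of the difference, FADD was higher and SESN2, SESN3 and ZMAT1 lower, 22.2% of those tested beside 7.29% of all genes. With Doxy, 0 were called between 3% and 20% O2 by edgeR and 0 by DESeq2, with 5 at an unadjusted p under 0.05 in edgeR. How many of all genes lay under that unadjusted p is not given, so the 5 cannot be read as an excess. Without Doxy, 2 were higher and 6 lower at 3% O2, 44.4% of those tested beside 25.8% of all genes.

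Within the sestrins, stress-inducible proteins that restrain mTORC1, SESN2 and SESN3 rose on FDX2 loss at 20% O2 and SESN1 was not called. SESN2 was at 16.7, 14.1 and 12.1 CPM in 20% O2 + Doxy and at 49.0, 47.7 and 46.8 CPM in 20% O2 wo Doxy, with a log2 fold change of 1.74 (SE 0.19, adjusted p = 4.36e-05). At 3% O2 it was at 12.1, 13.4 and 19.5 CPM with Doxy and at 14.1, 20.9 and 19.7 CPM without. These 3% O2 ranges overlapped, the log2 fold change was 0.28 (adjusted p = 0.405), and the difference of the responses was -1.46 (SE 0.26, adjusted p = 0.00839). The 19.5 CPM with Doxy (replicate 3) and the 14.1 CPM without (replicate 1) are both from libraries that stood apart. With either of them set aside the ranges do not overlap, so the missing call does not show that SESN2 was unchanged at 3% O2. SESN3 rose by 0.93 at 20% O2 (adjusted p = 3.91e-05), with 0.35 at 3% O2 (adjusted p = 0.0567) and a difference of -0.58 (adjusted p = 0.0308). SESN1, at -0.33 and -0.13, was not called in either.

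GADD45B, a relative of GADD45A in the same stress protein family, was at 16.5 to 20.3 CPM in 20% O2 + Doxy and at 26.5 to 30.5 CPM in 20% O2 wo Doxy. It rose by 0.64 at 20% O2 (adjusted p = 0.000809) and by 0.54 at 3% O2 (adjusted p = 0.0118), with no call for the difference. TP53INP2, the autophagy-related relative of TP53INP1, rose by 0.58 (adjusted p = 0.000344) and 0.39 (adjusted p = 0.0196), also with no call for the difference. In the FAS pathway, FADD, the adaptor that FAS recruits, was at 343 to 402 CPM with Doxy and 233 to 251 CPM without at 20% O2. It fell by 0.58 (adjusted p = 5.74e-05), and its difference of responses was 0.43 (adjusted p = 0.0183). Of its exonic bases, 54.9% overlap another gene on the opposite strand, so its counts are uncertain. CFLAR, an inhibitor of caspase-8 at that receptor, rose by 0.69 at 20% O2 and 0.50 at 3% O2, and CASP8 by 0.19 and TNFRSF10B, another death receptor, by 0.21 at 20% O2. RRM1, the large subunit that works with RRM2B, fell by 0.36 at 20% O2 (adjusted p = 0.00034), while RRM2, the cell cycle-linked small subunit, was at -0.10 (adjusted p = 0.448, with 20.2% of its exonic bases shared with another gene). MDM4, the partner of MDM2, was at 0.13 at 20% O2 and was not called. ZMAT1 rose by 0.60 at 20% O2, and its difference of responses was -0.63 (adjusted p = 0.0426).

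**Figure D3:**
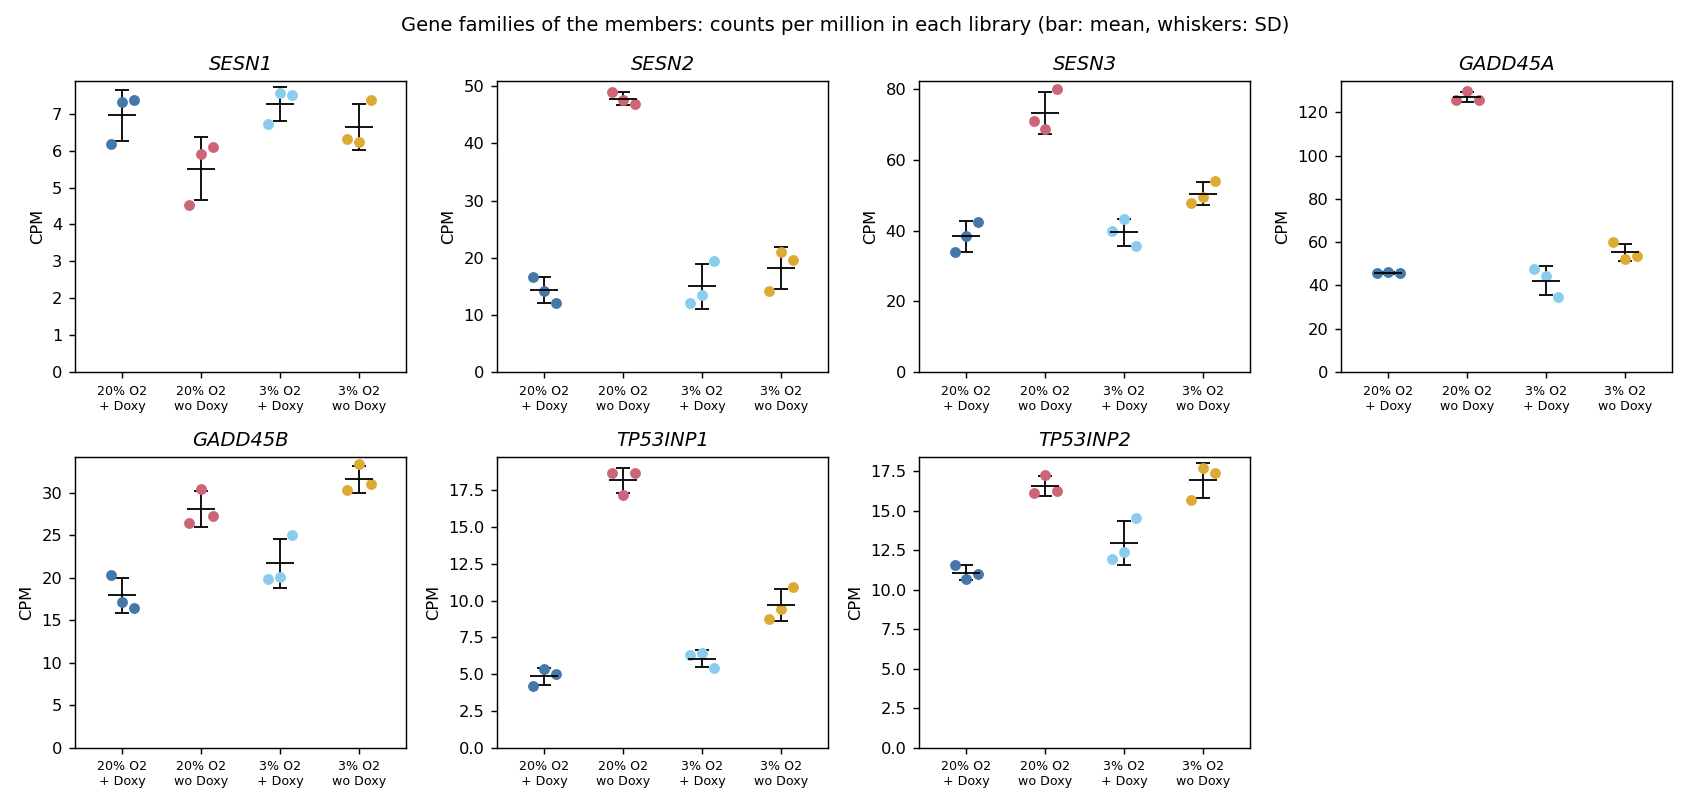
CPM (y axis, from 0) in each of the 12 libraries (points) of the 4 conditions (x axis) for the sestrins, GADD45A with GADD45B, and TP53INP1 with TP53INP2, with the mean (bar) and SD (whiskers) of 3 libraries. SESN2 stands at 46.8 to 49.0 CPM in 20% O2 wo Doxy and at 12.1 to 20.9 CPM elsewhere, whereas GADD45B and TP53INP2 are higher without Doxy at both oxygen levels.

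A list of 56 other known p53 targets was read the same way, of which 50 were tested (BTG2, CDIP1, EDA2R, SFN, SPATA18 and TP53AIP1 were not). On FDX2 loss at 20% O2, 15 rose and 6 fell, 42.0% of those tested beside the 35.3% of all genes, and their median log2 fold change was 0.09. Those that rose most, among genes of at least 1 CPM, were GDF15, a secreted stress cytokine (3.46, adjusted p = 2.79e-06), SESN2 (1.74), ORAI3, a calcium channel subunit (1.18, adjusted p = 0.000901), and ABHD4, a lipid hydrolase (1.08, adjusted p = 2.62e-05). GDF15 had 14 to 35 counts per library in 20% O2 + Doxy (0.51 to 1.12 CPM) and 256 to 292 in 20% O2 wo Doxy. The size of its change thus rests on few counts with Doxy. Another gene on the same strand shares 52.9% of the exonic bases of ORAI3, which leaves its counts uncertain. Those that fell most were PRDM1, a transcriptional repressor (-0.66, adjusted p = 0.000986), RAP2B, a small GTPase (-0.51, adjusted p = 0.000107), POLH, a translesion DNA polymerase (-0.45, adjusted p = 0.000717), and AEN, a nuclease of cell death (-0.44, adjusted p = 0.0211). CDKN1A, the p21 inhibitor of the cell cycle and the best known p53 target, was at 2.91 to 3.61 CPM with Doxy and at 4.30 to 4.43 CPM without. Its groups did not overlap, and its log2 fold change was 0.39 (SE 0.20, adjusted p = 0.166), not a call. At 3% O2 the log2 fold change of CDKN1A was -0.03 (adjusted p = 0.95). It was at 3.11, 3.74 and 5.59 CPM with Doxy and at 4.51, 3.25 and 4.43 CPM without. The 5.59 CPM (replicate 3) and the 4.51 CPM (replicate 1) are from libraries that stood apart. CDKN1A was chosen for mention after its values were seen.

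At 3% O2, 3 of the other targets rose (GDF15 at 1.81, KITLG, the ligand of KIT, at 0.61 and ABHD4 at 0.54) and POLH fell by 0.27. These 4 are 8% of the 50 tested, beside 7.31% of all genes, and the median was 0.05. Without 3% O2 + Doxy replicate 2 they were 2. GDF15 was at 0.55, 0.46 and 0.78 CPM with Doxy and at 2.01, 2.30 and 2.03 CPM without, on 12 to 65 counts per library. The test of the difference called 7 of the 50, 14% beside 7.29% of all genes. PLK2 and RAP2B were higher by 0.39 each, and 5 were lower, led by GDF15 (-1.64), SESN2 (-1.46), LIF, a cytokine (-0.75), and ANKRA2 (-0.45), with a median of -0.10 over the list. Without 20% O2 wo Doxy replicate 2 or 3, or 3% O2 + Doxy replicate 2, the 7 became 4, and without 3% O2 + Doxy replicate 3 they became 11. Between 3% and 20% O2 with Doxy, 2 were higher and 0 lower, 4% of those tested beside 2.02% of all genes. These were ORAI3 (0.88) and E2F7, a repressor of cell cycle genes (0.26), named after their values were seen. The 2 became 0 without 20% O2 + Doxy replicate 2 or 3 or 3% O2 + Doxy replicate 1, and 1 without replicate 2 or 3 of 3% O2 + Doxy. Without Doxy, 8 were higher and 11 lower at 3% O2, 38.0% of those tested beside 25.8% of all genes, with a median of -0.05. These 19 became 11 without 20% O2 wo Doxy replicate 3 and 12 without 3% O2 wo Doxy replicate 3. The counts with a library left out stand without the share over all genes. They therefore cannot tell a change of the p53 targets from a change over all genes.

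**Figure D4:**
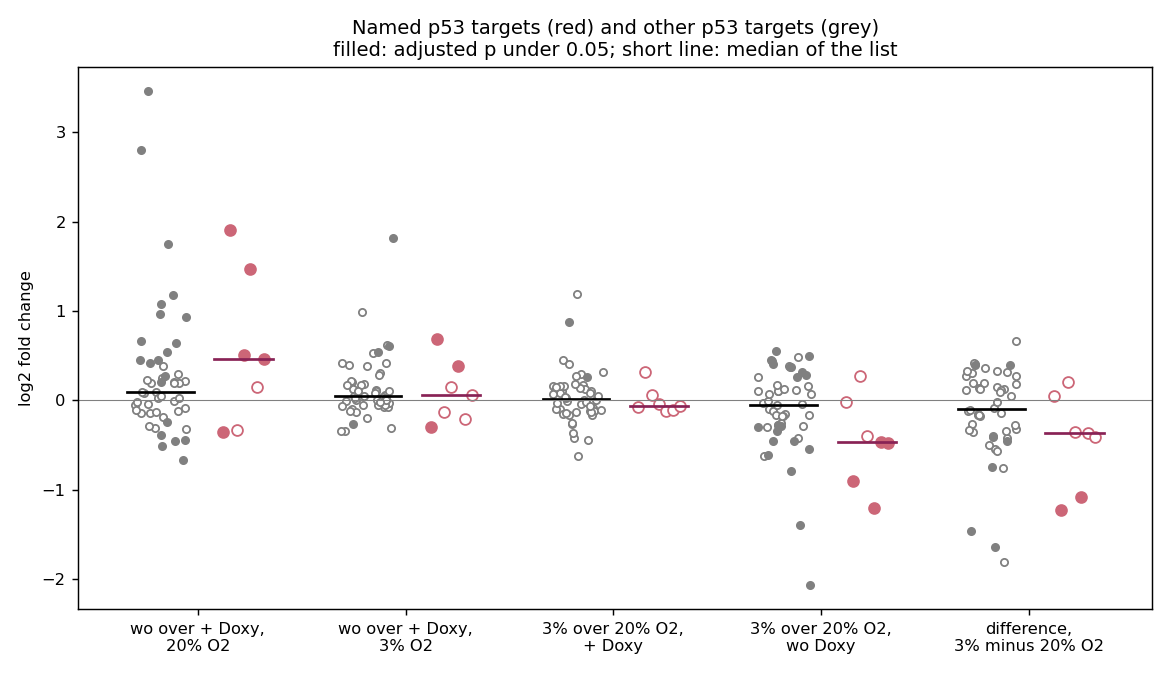
Log2 fold change (y axis) of the 7 members (red) and the 50 tested other p53 targets (grey) in the 5 comparisons (x axis), filled where the adjusted p is under 0.05, with the median of each list as a short line. At 20% O2 the median is 0.47 for the members and 0.09 for the other targets, and points of both lists lie on both sides of 0.

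Among 23 genes of the p53 family and its regulators, 22 were tested (TP73 was not). On FDX2 loss at 20% O2, 4 rose and 5 fell, 40.9% of those tested beside 35.3% of all genes, with a median log2 fold change of 0.01 in both. TP63, a p53 relative that can bind the same kind of DNA element, was at 10.9, 11.5 and 12.3 CPM with Doxy and at 19.2, 20.7 and 22.2 CPM without. It rose by 0.84 (SE 0.08, adjusted p = 2.27e-05) at 20% O2 and by 0.48 (adjusted p = 0.00652) at 3% O2. RCHY1, a ubiquitin ligase for p53, rose by 0.48 (adjusted p = 0.00463), and the kinases ATM and HIPK2 by 0.24 and 0.17. TRIM24, another ubiquitin ligase for p53, fell by 0.60 at 20% O2 (adjusted p = 1.01e-05) and by 0.29 at 3% O2 (adjusted p = 0.00943), and USP7, which removes ubiquitin from p53 and MDM2, by 0.52 (adjusted p = 0.000536) at 20% O2. CHEK1 and USP10 fell by 0.34 and 0.21. At 3% O2 TP63 and TRIM24 were the 2 called of 22, 9.09% beside 7.31% of all genes. The difference of the responses was called for TRIM24 (0.31, adjusted p = 0.0303) and COP1 (0.27, adjusted p = 0.0316), again 9.09%, beside 7.29% of all genes. With Doxy, 0 of the 22 were called between 3% and 20% O2 by edgeR and 0 by DESeq2, with 3 at an unadjusted p under 0.05 in edgeR. Those 3 stand without the share of all genes under that unadjusted p and cannot be read as an excess. Without Doxy, 5 were higher and 3 lower at 3% O2, 36.4% of those tested beside 25.8% of all genes.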

How the data were processed

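RNA-seq was done on poly(A) RNA of FDX2-iKO ES2 cells, paired-end, on a DNBSEQ-T7 sequencer. The submitters' processing notes in the labels name the aligner STAR, the counter featureCounts, DESeq2 and the build GRCh38. The annotation, strand setting and versions are not given in the sources used here. The deposited values are raw counts per gene, with no normalization and no pooling. For 20% O2 + Doxy replicates 1 and 2 some reads were lost after counting, which leaves the counts as they were.

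All 58735 identifiers were found in GENCODE 29. Genes were filtered with filterByExpr of edgeR 4.0.16 (minimum count 10, minimum total 15) in R 4.3.3, which kept 16891 of 32966 genes with any count. Library totals were scaled by TMM. Condition means were fitted over 12 libraries (8 residual degrees of freedom) with the quasi-likelihood test, and a call is a Benjamini-Hochberg adjusted p under 0.05 over all tested genes. CPM used TMM-scaled totals, TPM GENCODE 29 exonic lengths. The script was tested on simulated counts. Alternatives were DESeq2 1.42.0 (size factors, Wald test), other filters, a replicate block, only the conditions compared, each library left out and a 1.5-fold minimum, and, chosen after seeing the data, a GC correction, a fit without 3 libraries and a block within 2 conditions.

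The study describes the 3 libraries of a condition as biological replicates. Same-numbered libraries of 20% O2 wo Doxy and 3% O2 wo Doxy deviated together from their condition means (r = 0.19 to 0.50). Libraries of unlike number ran from -0.47 to 0.23 there, so the ranges overlapped. Only in this comparison were all same-numbered values positive, a hint from the data that the numbers pair the libraries. The members and lists were chosen with earlier results of these data known. Named genes were all members, up to 4 called genes per direction with the largest change and at least 1 CPM in each list for the 2 FDX2-loss comparisons and their difference, any tested relative, and the 3 most similar profiles. The levels of the p53 gene itself and of 1 gene of the epithelial marker list are not reported here.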

Additional observations from a re-analysis of the deposited data

Results flagged for a closer look

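The response to FDX2 loss differed between 20% and 3% O2 for 2 members by the interaction term of the fit. For TP53INP1 the log2 fold change was 1.91 at 20% O2 and 0.68 at 3% O2, a difference of -1.22 (adjusted p = 0.0019), and the libraries without Doxy were above those with Doxy in all 3 against 3 at both oxygen levels. For GADD45A it was 1.47 and 0.39, a difference of -1.08 (adjusted p = 0.00159), with the same separation. Over the 19 alternatives the difference ran from -1.31 to -1.13 for TP53INP1 and from -1.27 to -0.98 for GADD45A, with adjusted p-values up to 0.0111 and 0.00908. The deviation of a library from its condition mean correlated with the GC content of the genes by -0.53 to 0.60 (Spearman, across genes), and with a GC correction the differences were -1.16 and -1.25.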

How the results depend on the processing

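Of 539 alternative values for single members, 482 kept their direction and their side of the threshold, 27 lost and 14 gained significance, and 16 changed sign. In FDX2 loss at 20% O2, MDM2, TP53INP1, GADD45A and ZMAT3 kept their calls in all 14 alternatives and FAS lost its call in 8. At 3% O2, TP53INP1 lost its call in 1 (only the conditions compared, adjusted p = 0.0702), MDM2 in 8 and GADD45A in 10. FAS had the fewest counts of the members, 50 to 102 per library, and the part of depth in its lost calls was not tested.

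Members called fell from 5 to 2 (20% O2) and from 3 to 1 (3% O2) with a 1.5-fold minimum, and from 4 to 2 for 3% against 20% O2 without Doxy. At 3% O2 they were 1 with no filter, 1 with the replicate block and 0 with only the conditions compared, and 1 to 3 with a library left out. With a library left out they were 4 to 5 at 20% O2, 0 and 4 for oxygen with and without Doxy, and 2 to 3 for the difference. In the order FDX2 loss at 20% and at 3% O2, oxygen with and without Doxy, and the difference, used for all series of counts here, they were 7, 2, 1 (TP53INP1, 0.39, adjusted p = 0.019), 5 and 3 with a GC correction, and without the 3 libraries that stood apart 5, 4, 0, 4 and 4. Under these 2 settings the calls over all genes rose as well, as given below. For the fits with a library left out, the calls over all genes are not given.

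For the other p53 targets, a 1.5-fold minimum gave 10, 2, 1, 4 and 3. For 3% against 20% O2 with Doxy, 0 were called with no filter, 0 with the replicate block, 0 with only the conditions compared and 5 with DESeq2. Only the conditions compared gave 1 for FDX2 loss at 3% O2. The replicate block gave 4 for the difference. With a GC correction they were 13 for FDX2 loss at 3% O2, 7 with Doxy and 17 for the difference, and without the 3 libraries 15, 9, 31 without Doxy and 21. Under both settings the calls over all genes rose too, as given below, so these counts are not a result about the p53 targets alone. With a library left out, the other p53 targets called ranged from 17 to 21, 2 to 5, 0 to 3, 11 to 19 and 4 to 11. By DESeq2, 6 genes of the p53 family and regulators and 5 relatives were called for FDX2 loss at 3% O2, against 2 and 3 by edgeR.

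Over all genes, calls went from 5961, 1235, 341, 4360 and 1231 to 5079, 676, 218, 3203 and 615 with the replicate block over 4 conditions, 7778, 3035, 1201, 5627 and 2986 with a GC correction, and 8221, 5554, 982, 7980 and 4655 without the 3 libraries. With only the conditions compared they were 6470, 218, 128 and 5589, with no filter 678 for FDX2 loss at 3% O2 and 672 for the difference, with a 1.5-fold minimum 2301, 341, 182, 1338 and 526, and with DESeq2's Wald test 1898, 603 and 1861 for FDX2 loss at 3% O2, oxygen with Doxy and the difference. Where the numbers hinted at a pairing, the block within the 2 conditions kept the same 4 members (5081 genes), also with a GC correction, which added SESN1 (0.41, adjusted p = 0.0474). Elsewhere there was no such hint, and the block turned SESN1 at 20% O2 into a call (adjusted p = 0.0297).

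Signs changed only for values not called. With 1 library left out, the log2 fold change for 3% against 20% O2 with Doxy ran from -0.0276 to 0.115 for SESN1, from -0.155 to 0.0554 for FAS, from -0.215 to 0.00261 for GADD45A and from -0.173 to 0.0374 for ZMAT3. That of MDM2 ran from -0.0762 to 0.0196 for 3% against 20% O2 without Doxy and from -0.00428 to 0.127 for the difference, and that of ZMAT3 for FDX2 loss at 3% O2 from -0.0149 to 0.0949. With a GC correction, FAS was at 0.00966 with Doxy and MDM2 at 0.0937 without Doxy (0.0956 with the block too). Without the 3 libraries, ZMAT3 was at -0.0124 for FDX2 loss at 3% O2, SESN1 at -0.055 with Doxy and MDM2 at 0.000682 without Doxy. The causes were not tested.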
